A study of Mus musculus with 2 samples.

Results

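Ccn1, Ccn3, Ccn4 and Ccn5 are the relatives of Ccn2 (formerly Ctgf, connective tissue growth factor) in the CCN family of matricellular genes. These 4 genes were taken by symbol from 28200 gene symbols found in either count matrix of the study, of which 25114, the 4 included, were in both. Ccn2 itself, the gene deleted in the study, and Ccn6, the remaining member of the family, are given for reference only. Liver cells of 2 littermates, of which the knockout is given as male, were profiled by single-cell RNA sequencing (BD Rhapsody whole transcriptome assay) after the inferior vena cava had been partly tied off in both animals, which models a congested liver. One library carries the genotype label Ctgf fl/fl, floxed Ctgf alleles without a Cre, and is called here the control-labelled library. The other carries the label Cdh5-CreERT2; Ctgf fl/fl and is called the knockout-labelled library. In that genotype an inducible Cre recombinase under the promoter of the endothelial cadherin gene Cdh5 acts on the same floxed alleles. The sample titles state the opposite of the genotype labels, and the groups follow the genotype labels. Both libraries carry the same batch label. Neither the inducing agent, its schedule nor the age of the mice was stated in the labels. Hepatocytes had been depleted by low-speed centrifugation, so the cells describe the suspension and not the whole liver.

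CCN proteins are secreted, cysteine-rich proteins that sit in the extracellular matrix, bind integrins and heparan sulphate proteoglycans, and modulate adhesion and growth factor signalling rather than building the matrix. Ccn1 and Ccn2 are rapidly inducible genes and familiar targets of the mechanosensitive coactivators YAP and MRTF, which act through the DNA-binding factors TEAD and SRF. Ccn4 was identified as a Wnt-induced gene, Ccn3 is known for effects opposed to those of Ccn2 in several fibrosis settings, and Ccn5 lacks the C-terminal domain found in the other members and is known from smooth muscle and fibroblasts. In the liver, Ccn2 is best known as a product of stellate cells, the retinoid-storing pericytes, and of endothelium under mechanical load.

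Cells were assigned to 17 classes by the number of distinct marker genes detected, and 7573 cells of the control-labelled library and 8428 of the knockout-labelled library were kept. Median depth was 7811 and 9204.5 counts per cell. The classes held 1872 and 3494 endothelial cells, 290 and 424 stellate cells, 206 and 61 contractile mesenchymal cells, 27 and 24 fibroblasts, and 47 and 17 mesothelial cells, in the order control and knockout that is kept throughout. Cells passing the gates of several lineages, 1515 and 1674, formed a mixed group that was left out of the classes. The libraries shared 2 cell barcodes. Levels are counts per 1000000 (CPM) of the summed counts of a class, with 95% Poisson intervals, and ratios are log2 values of the knockout-labelled library over the control-labelled library, with exact conditional intervals. With 1 library per label there was no test, all intervals cover counting error only, and genotype, animal, surgery and library cannot be told apart. A gene is called higher or lower by size where the ratio was at least 1.5-fold, among genes with at least 20 counts in all and 10 CPM in 1 library.

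Ccn2 checked the labels. In endothelial cells it stood at 979 CPM in the control-labelled library and 4.61 CPM in the knockout-labelled library, giving a log2 ratio of -7.73 (-7.99 to -7.48). A count was found in 74.0% and 2.29% of the cells. The loss therefore matches the genotype labels rather than the titles. In stellate cells Ccn2 remained at 867 and 1115 CPM, giving a log2 ratio of 0.36 (0.29 to 0.44), and in contractile cells at 1739 and 1284 CPM.

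No measured relative of Ccn2 was higher by size in the endothelial class of the library in which Ccn2 was lost. Ccn4, the Wnt-induced member, stood at 87.5 CPM (82.8 to 92.4) in the control-labelled library and 90.2 CPM (86.8 to 93.7) in the knockout-labelled library. The log2 ratio was 0.04 (-0.05 to 0.14), and the intervals overlapped. Over the alternatives the Ccn4 ratio ranged from -0.12, as a mean of per-cell CPM, to 0.31, by clusters. Ccn1 was lower, at 85.4 CPM (80.8 to 90.2) and 50.2 CPM (47.6 to 52.8), giving a log2 ratio of -0.77 (-0.88 to -0.66). Ccn3 had 2 and 0 counts in the whole endothelial class, and Ccn5 had 2 and 3, so both were at or near the limit of 3 counts. Ccn6, given for reference, had 0 and 14 counts there, or 0 and 0.48 CPM, too few to count as measured. Its log2 ratio interval lay above 0, from 0.77 upward, at a level far under the 10 CPM limit. Of the 2 measured members, 0 were higher and 1 was lower by size. Over all 9230 genes measured in this class, 5.42% were higher and 12.7% lower, and 872 had a lower ratio than Ccn1.

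The shares of positive endothelial cells followed the levels. Ccn4 was found in 40.5% (38.3 to 42.8, exact binomial) and 38.9% (37.3 to 40.6) of cells, and Ccn1 in 26.0% (24.0 to 28.1) and 17.8% (16.5 to 19.1). With each cell thinned to 4000 counts, which left out 100 and 378 shallower cells, the Ccn4 shares were 27.1% and 25.3% with overlapping intervals. The thinned Ccn1 shares were 18% and 10.9%, and their intervals did not overlap. B cells, which should lack these genes, gave the background from free RNA. There Ccn1 was found in 2.21% and 1.69% of cells and Ccn4 in 1.10% and 1.27%, where the median depth was 4512 and 4022 counts, against 6648 and 7128.5 for endothelium. Both genes were thus well above background in endothelium of either library. Positive cells mostly held few counts of either gene: after thinning, 4 or more counts of Ccn1 were found in 29 of 1772 and 24 of 3116 endothelial cells.

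**Figure D1:**
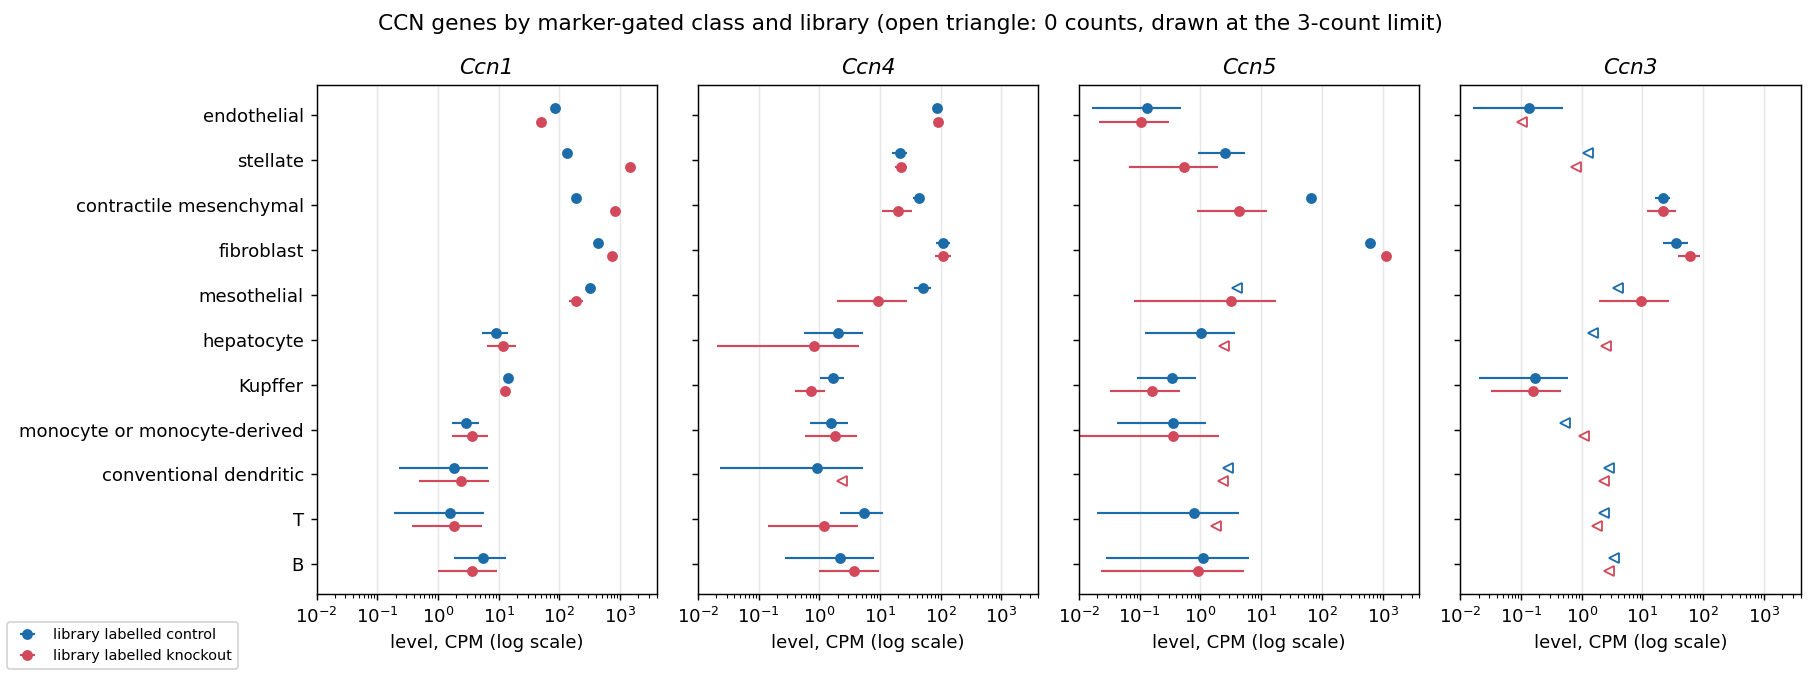
Levels of Ccn1, Ccn4, Ccn5 and Ccn3 in CPM (log axis) by cell class, in the control-labelled library (blue) and the knockout-labelled library (red), with 95% Poisson intervals and open triangles for classes with 0 counts. Ccn4 lies at 87.5 and 90.2 CPM in endothelial cells, Ccn1 is 11-fold higher in stellate cells of the knockout-labelled library, Ccn5 is highest in fibroblasts at 615 and 1114 CPM, and Ccn3 reaches 20 CPM only in contractile cells and fibroblasts.

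Endothelial cells were then compared within clusters, formed without any CCN gene, because the libraries filled these clusters unequally. Cluster 0, led by Esm1, Lyve1 and Apln, held 48.9% of endothelial cells of the control-labelled library and 4.75% of those of the knockout-labelled library. Cluster 9, led by Cyp26b1, Col13a1 and Tpbgl, held 4.22% and 58.9%. A cluster filled mostly by 1 library may reflect that library and not a cell type. Cluster 9 had little Ccn1 in either library, at 20.3 CPM (9 counts) and 34.4 CPM (563 counts), whereas cluster 0 had 75.1 and 90.7 CPM. In cluster 1, which held 233 and 656 cells, Ccn1 stood at 42.6 and 42.9 CPM. Cluster 3 was led by Fmo2, Wnt9b and Fbln2 and also by Selp, Vwf and Rspo3. It had the highest Ccn1 level of the control-labelled library at 209 CPM, beside 187 CPM in the knockout-labelled library, with a ratio interval that included 0.

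Over the 8 clusters with at least 20 endothelial cells in each library, the Ccn1 level was higher in 5 and lower in 3 in the knockout-labelled library. The interval lay above 0 in 2 clusters and below 0 in 2. The 2 clusters with an interval above 0 were cluster 28, led by Gja5, Adgrg6 and Cyp1a1, at 42.5 and 186 CPM (13 and 52 counts), and cluster 4, led by the cell-cycle genes Prc1, Ccna2 and Tpx2, at 68.5 and 104 CPM. The 2 with an interval below 0 were cluster 10, led by Dpyd, Car3 and Etnk2 and with mostly hepatocyte genes, such as Alb, Cyp2e1 and Pck1, among its leading genes, at 95.9 and 25.5 CPM, and cluster 26, led by Lrmda, B3galt1 and Fbxl7, at 72.5 and 28.3 CPM. When each cluster was given its weight in the control-labelled library, a calculation added after the clusters had been seen, Ccn1 came to 90.4 and 98.2 CPM, a log2 ratio of 0.12. Without weights the same cells gave 90.4 and 50.8 CPM, a log2 ratio of -0.83. With control weights, the lower Ccn1 of the pooled endothelium was therefore not found. That value has no interval and leans most on cluster 0, with only 166 cells and 142 Ccn1 counts in the knockout-labelled library. Cluster 9, with 58.9% of the endothelial cells of that library, had a small weight. A lower level was still found in cells with mostly pericentral markers, given below, and in those with mostly periportal markers, which made up most of the class. With the mixed cells kept in the class, also added after the data had been seen, the ratio turned to 0.31. Among those mixed cells, the log2 ratio was 2.23 (2.08 to 2.38) with stellate and no Kupffer markers. It was -0.65 (-0.79 to -0.51) with Kupffer and no stellate markers.

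Ccn4 had counts in all 8 clusters of both libraries except cluster 28 of the knockout-labelled library. In clusters 0, 1 and 9 it stood at 111, 102 and 83.5 CPM in the control-labelled library and at 116, 124 and 82.5 CPM in the knockout-labelled library. Cluster 3, where Ccn1 was highest in the control-labelled library, had the lower Ccn4 levels of 69.0 and 70.4 CPM. The largest positive ratio was in the cell-cycle cluster 4, at 37.7 and 111 CPM from 43 and 75 counts, giving a log2 ratio of 1.56 (1.0 to 2.14). Cluster 26 was lower, at 125 and 76.3 CPM, and cluster 28 had 10 counts and 0. With control weights Ccn4 came to 94.7 and 103 CPM, a log2 ratio of 0.12. Neither member was thus higher by size over the whole class under either way of averaging. Among cells sorted instead by zonal markers, those with mostly pericentral markers, 119 and 270 cells, had Ccn4 at 46.2 and 70.6 CPM, giving a log2 ratio of 0.61 (0.17 to 1.08), and Ccn1 at 133 and 94.9 CPM. The periportal markers took 70.6% and 79.9% of endothelial cells and so did not single out a zone.

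**Figure D2:**
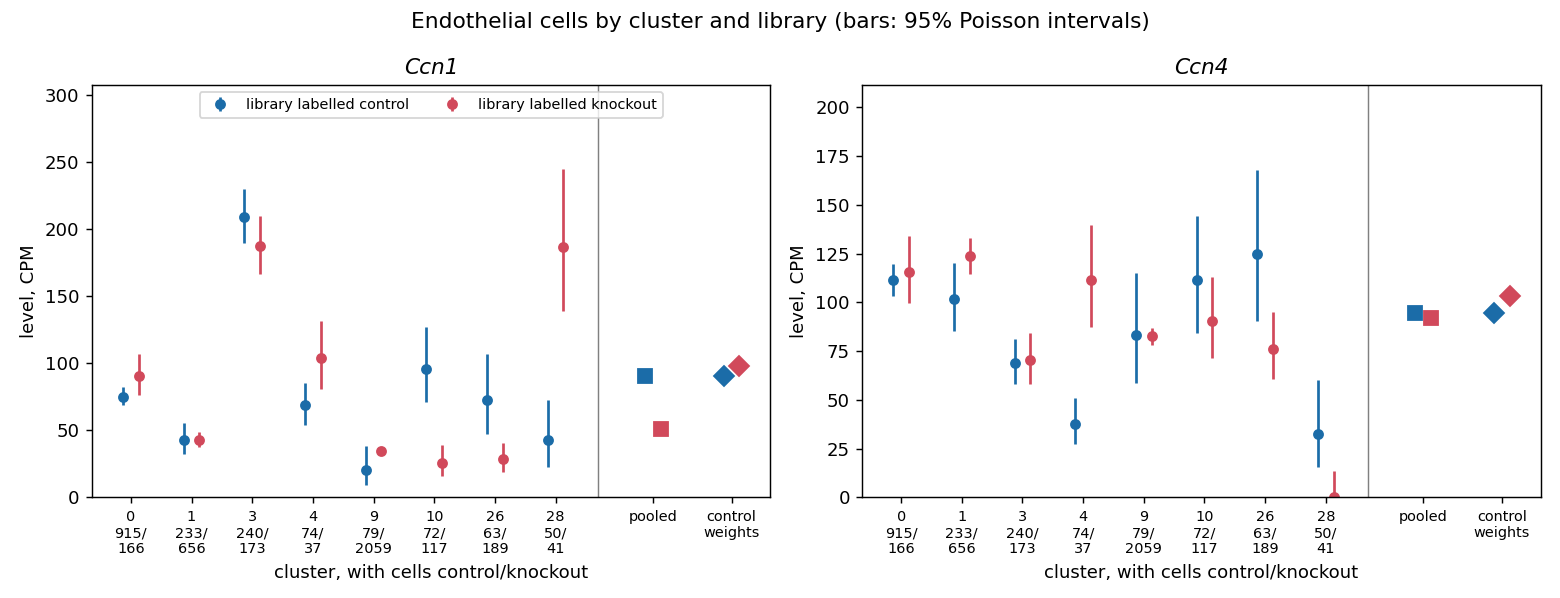
Ccn1 (left) and Ccn4 (right) in CPM in endothelial cells of each cluster, with 95% Poisson intervals and the number of cells of each library under the cluster number. To the right of the line, squares give the level over all 8 clusters and diamonds the level with each cluster weighted as in the control-labelled library. For Ccn1 the squares lie at 90.4 and 50.8 CPM and the diamonds at 90.4 and 98.2 CPM.

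Within the control-labelled library, Ccn1 was found more often in endothelial cells that also held Ccn2. Thinned endothelial cells of the control-labelled library with a Ccn2 count had Ccn1 at 102 CPM (93.1 to 111) and in 21.9% of 1187 cells. Those without a Ccn2 count had 34.6 CPM (27.5 to 43.0) and 10.1% of 585 cells, at nearly the same median depth of 6846 and 6894 counts. In the knockout-labelled library, the 3071 cells without a Ccn2 count had Ccn1 at 43.6 CPM (40.02 to 47.5) and in 10.9% of cells. That share was close to the Ccn2-negative cells of the control-labelled library, with overlapping intervals. The 45 cells with a Ccn2 count there had Ccn1 in 11.1% (3.71 to 24.1), which did not differ beyond counting error from the cells without. Ccn4 was more even in the control-labelled library, at 97.7 CPM with and 83.3 CPM without a Ccn2 count, in 28.6% and 24.3% of the cells. Cells of 1 animal are not replicates, and a count absent from a cell does not show that the gene was silent there.

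Ccn1 was far higher in stellate cells of the knockout-labelled library. Ccn1 stood at 131 CPM (117 to 147) in the control-labelled library and 1444 CPM (1405 to 1483) in the knockout-labelled library, from 313 and 5350 counts. The log2 ratio was 3.46 (3.29 to 3.63), an 11-fold higher level (9.81 to 12.4). Of the 2 measured members in this class, 1 was higher and 0 were lower by size, beside 7.37% and 10.9% of all 9318 measured genes. Only 10 of those genes had a higher ratio than Ccn1. Cells with a Ccn1 count made up 34.1% (28.7 to 39.9) and 94.1% (91.4 to 96.1) of stellate cells, or 27.8% and 89.2% after thinning. The higher level was spread over the class: 0 of 281 thinned stellate cells of the control-labelled library held 8 or more Ccn1 counts, against 120 of 371 in the knockout-labelled library. Median depth was 7415.5 and 7341.5 counts per stellate cell. Over the alternative gates, filters and scalings the log2 ratio ranged from 2.02, with mixed cells kept, to 4.33, with a looser gate.

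**Figure D3:**
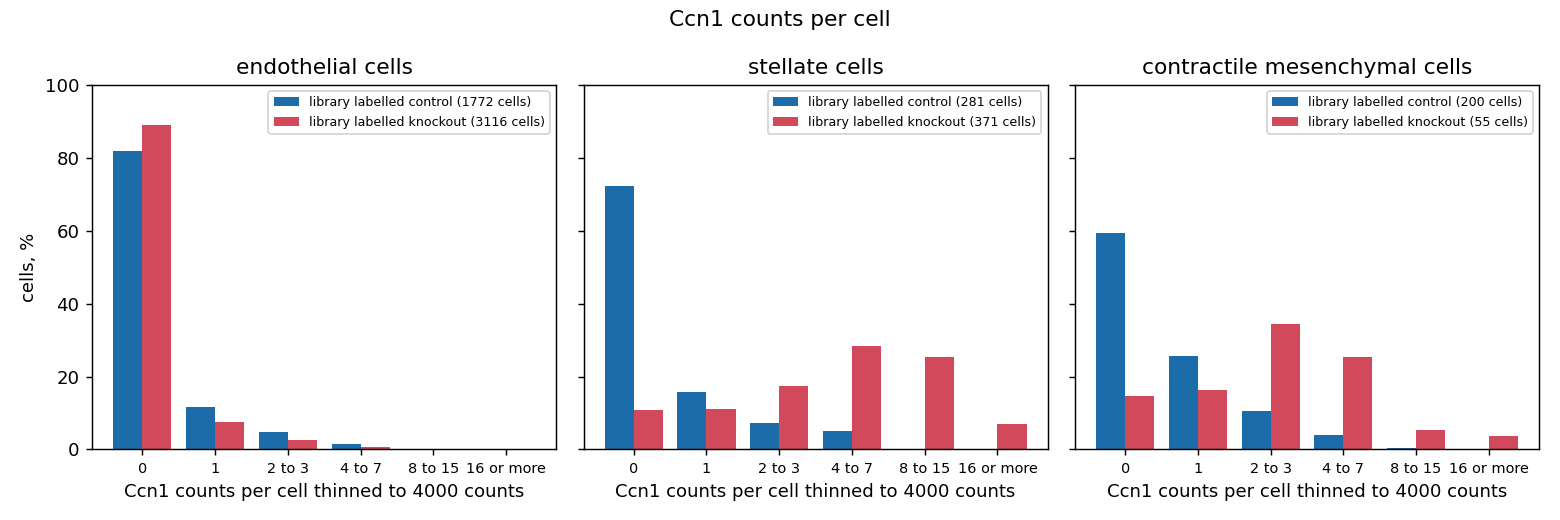
Distribution of Ccn1 counts per cell after thinning each cell to 4000 counts, as the percentage of endothelial, stellate and contractile mesenchymal cells in each library. In stellate cells 72.2% of the control-labelled library and 10.8% of the knockout-labelled library hold no Ccn1 count, while endothelial cells are mostly without one in both.

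Contractile mesenchymal cells, marked by smooth muscle genes such as Myh11 and Acta2, had the same direction. Ccn1 stood at 185 CPM (169 to 202) and 835 CPM (769 to 906), giving a log2 ratio of 2.17 (2.00 to 2.35), and was found in 61.2% and 95.1% of the cells. Of these cells, 92 of 206 and 45 of 61 lay at the marker threshold of the class, so it shades into stellate cells, and the summed level of 10 stellate markers in it was 9257 and 18921 CPM. Of the 4 members measured here, 1 was higher and 2 were lower by size, beside 15.6% and 19.4% of 9379 genes. In fibroblasts Ccn1 stood at 432 and 743 CPM, giving a log2 ratio of 0.78 (0.53 to 1.03). Pooling these 3 classes gave 186 and 1295 CPM, giving a log2 ratio of 2.80 (2.70 to 2.89). Stellate cells held 5.96% of all Ccn1 counts of the control-labelled library and 35.5% of those of the knockout-labelled library, while the endothelial part was 24.3% and 9.67%. The mixed cells held 45.7% and 45.8% of Ccn1 counts. Those with endothelial and stellate but no Kupffer markers had 156 and 730 CPM. Mixed cells with stellate and Kupffer but no endothelial markers had 84.5 and 345 CPM. Those with endothelial and Kupffer but no stellate markers had 59.7 and 38.0 CPM.

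Ccn1 was higher in stellate cells whether or not a cell held a Ccn2 count. With a Ccn2 count, thinned stellate cells had Ccn1 at 160 CPM in the control-labelled library and 1606 CPM in the knockout-labelled library. Without one they had 80.6 and 1361 CPM, from 93 and 61 cells. Ccn2 itself had a log2 ratio of 0.36 in this class, which turned to -0.30 by clusters and to -0.91 with mixed cells kept. Ccn4 in stellate cells was low and even, at 21.4 and 22.1 CPM, giving a log2 ratio of 0.05 (-0.47 to 0.58). Ccn3 had 0 counts in 290 and 424 stellate cells, which allows a share of cells with a count of up to 1.03% and 0.708%, and Ccn5 had 6 and 2 counts.

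The promoter of Ccn1 is shown because its known regulators set the gene lists used next. The window is the 250 bases before the start of the gene at chr3:145649986-145650235 on the minus strand of GRCm38.p6, from RefSeq, an older build than the GRCm39 named for the count files. Of the 4 members, 1 was matched in that table by symbol. Capitals mark matches to GGAATG (the core of TEAD sites), TGACG (the core of cAMP response elements) and TATAAA, the first pair searched on both strands and TATAAA on the strand of the gene.
Ccn1: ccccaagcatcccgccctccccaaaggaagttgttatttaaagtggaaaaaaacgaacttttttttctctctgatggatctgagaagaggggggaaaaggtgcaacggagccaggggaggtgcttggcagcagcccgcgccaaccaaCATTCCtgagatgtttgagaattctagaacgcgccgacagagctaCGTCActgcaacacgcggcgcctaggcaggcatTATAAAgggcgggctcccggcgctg
The TEAD match began 103 bases before the start, the TGACG match 58 bases and the TATAAA match 25 bases before it. Among 32851 promoter windows of this length, 12.6% held GGAATG, 17.8% TGACG and 7.59% TATAAA in the same search, so none of these is rare. The SRF motif (CArG box), present in 1.47% of windows, and the AP-1 motif TGANTCA, present in 6.75%, had no match in these 250 bases. A match is a description of letters and not evidence of binding.

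Immediate-early and dissociation-response genes, such as Fos and Egr1, are induced within minutes by stress, serum or tissue digestion, and Ccn1 is itself rapidly inducible. They were higher in the knockout-labelled library in stellate, contractile, Kupffer and endothelial cells. In stellate cells 14 of 20 measured members were higher and 1 was lower by size, beside 7.37% and 10.9% of all genes measured there. Their median log2 ratio was 0.78, beside -0.01 over all measured genes. Nr4a1, an orphan nuclear receptor, stood at 6.29 and 98.0 CPM, Hspa1b, an inducible heat shock protein, at 3.36 and 25.9 CPM, and Atf3, a stress-induced transcription factor, at 11.3 and 61.0 CPM. In contractile cells 12 of 19 were higher and 0 lower, with a median of 0.84, beside 15.6% and 19.4% of all genes measured there. In Kupffer cells 17 of 20 were higher and 1 lower, with a median of 1.05, beside 4.45% and 6.32% of all genes measured there. In mesothelial cells 0 of 19 were higher and 8 lower, beside 16.8% and 22.8% of genes. In endothelial cells 13 of 19 were higher and 3 lower, with a median of 0.63, beside 5.42% and 12.7% of genes. Ier3, a survival gene, stood there at 21.6 and 90.5 CPM. Ccn1 was lower in the pooled endothelium and stood at 14.3 and 12.8 CPM in Kupffer cells, a low level set beside that of B cells below.

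Their part in the Ccn1 result was not tested. Values of Ccn1 were also taken apart for cells with few and with many immediate-early counts, a split added after the data had been seen. Among stellate cells whose summed immediate-early level was at or below the median of the control-labelled library, 145 and 60 cells, Ccn1 stood at 61.3 and 571 CPM, giving a log2 ratio of 3.22 (2.82 to 3.64). Above that median, 145 and 364 cells, it stood at 186 and 1567 CPM, giving a log2 ratio of 3.08 (2.89 to 3.27). Ccn1 was thus higher in cells with more immediate-early counts within each library. The ratio intervals of both sets of cells overlapped. Cells were split at that median only, so immediate-early levels within a set could still differ between the libraries, and this was not tested. In endothelial cells the same split gave log2 ratios of -0.95 (-1.17 to -0.74) and -0.85 (-0.98 to -0.72).

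Lists of other genes known as targets of YAP and TEAD, of SRF and MRTF and of TGF-beta were counted in the same stellate cells, beside 7.37% higher and 10.9% lower over all genes. Of 15 measured YAP and TEAD targets without CCN genes, 1 was higher and 5 were lower by size, with a median log2 ratio of 0.05, which turned to -0.21 with a lower or a higher level required of a measured gene. Tgfb2, a growth factor, stood at 116 and 38.3 CPM, Ccdc80, a matrix protein, at 1042 and 395 CPM, and Myof, a membrane repair protein, at 30.2 and 14.8 CPM. Of 13 SRF and MRTF targets, 2 were higher and 3 lower, with a median of -0.20. Acta2 and Tagln of this list were also markers of the contractile gate, and cells passing that gate were not in the stellate class. Acta2, smooth muscle actin, stood at 247 and 8.09 CPM, Fhl2 at 138 and 33.5 CPM and Tpm1, a tropomyosin, at 995 and 365 CPM. Of 11 genes of the TGF-beta response, 2 were higher and 3 lower. Timp1, an inhibitor of matrix proteases, stood at 23.1 and 1.35 CPM, and Col1a1, a fibrillar collagen chain, at 1823 and 401 CPM. The Wnt list had 3 measured members, of which Nkd1, a feedback inhibitor, stood at 189 and 290 CPM. In the pooled stellate, contractile and fibroblast cells, 0 of 15 SRF and MRTF targets were higher and 9 lower, with a median of -1.05. There 0 of 16 YAP and TEAD targets were higher and 5 lower, with a median of -0.38. Over all 9353 genes measured in that pool, 854 were higher and 1000 lower. The pool held 206 and 61 contractile cells, so its make-up differed between the libraries.

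In endothelial cells, 0 of 13 YAP and TEAD targets were higher and 5 were lower by size, with a median of -0.04, beside 5.42% and 12.7% of all genes for this and the next lists. Myof stood at 28.7 and 5.3 CPM, Igfbp3, an insulin-like growth factor binding protein, at 26.2 and 5.68 CPM and Axl, a receptor tyrosine kinase, at 103 and 28.8 CPM. Of 9 SRF and MRTF targets, 0 were higher and 8 lower, with a median of -1.07. Tagln stood at 15.1 and 3.85 CPM, Acta2 at 12.6 and 3.96 CPM and Flna, an actin cross-linker, at 165 and 59.2 CPM. Acta2 was at 2854 and 571 CPM in contractile cells, so its endothelial counts are at a level that free RNA could give, and this was not tested. Of 8 genes of the TGF-beta response, 2 were higher and 3 lower, and their median of -0.45 turned to 0.17 under a stricter limit on measured genes. Tgfbi, a matrix adhesion protein, stood at 47.8 and 9.91 CPM, Col1a1 at 17.3 and 4.16 CPM and Bambi, a decoy receptor, at 30.9 and 13.2 CPM. Nkd1, the 1 measured Wnt target, stood at 34.7 and 76.6 CPM. Summed over 10 stellate markers, endothelial cells had 192 and 178 CPM, beside 17336 and 24533 CPM in stellate cells, and all 10 markers had counts. The 9 hepatocyte markers, all with counts, summed to 431 and 133 CPM in endothelial cells. The part of such RNA in the endothelial lists was not tested.

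**Figure D4:**
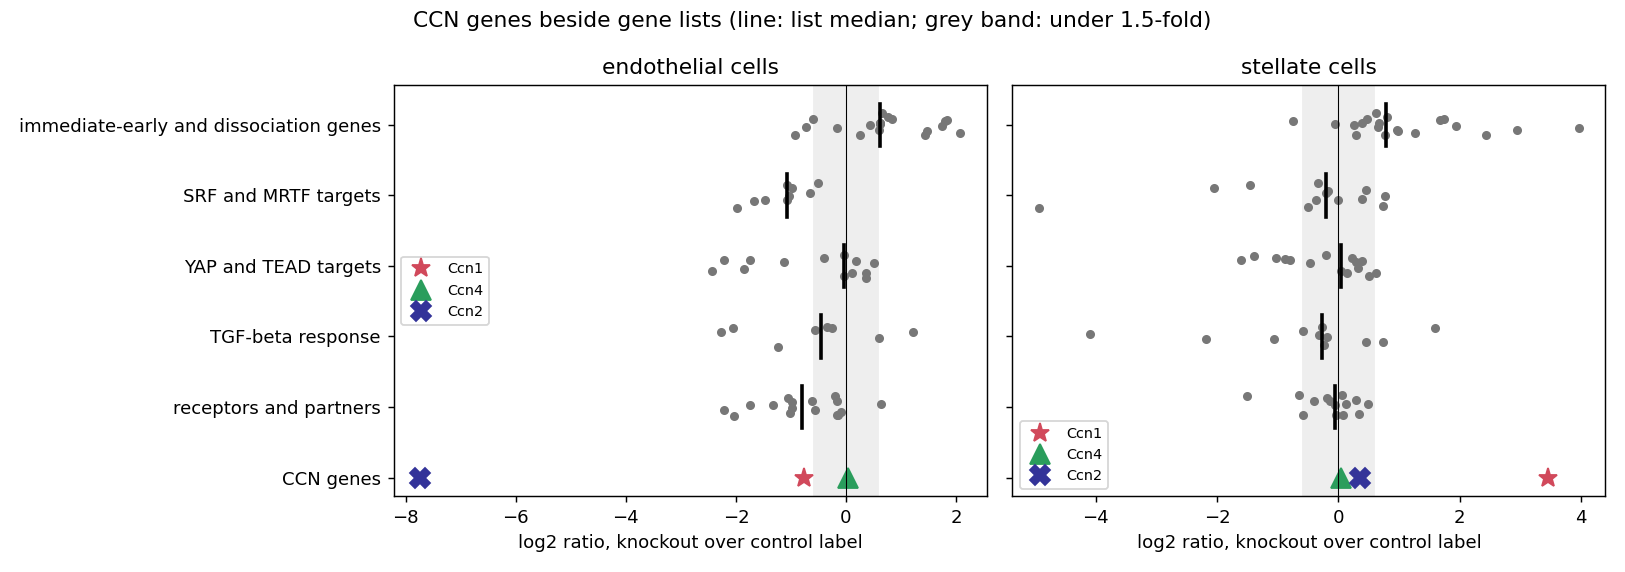
Log2 ratios of the knockout-labelled library over the control-labelled library for each measured gene of 5 lists (dots, with the list median as a line) and for Ccn1, Ccn4 and Ccn2, in endothelial and stellate cells. The grey band spans ratios under 1.5-fold. In stellate cells Ccn1 at 3.46 lies to the right of the TEAD and SRF targets, and in endothelial cells at -0.77 it lies to the left of the immediate-early median of 0.63.

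Proteins reported to bind CCN proteins were measured as well. In endothelial cells, 1 of 16 was higher and 9 were lower by size, beside 5.42% and 12.7% of all genes, with a median log2 ratio of -0.80. Lrp1, an endocytic receptor of CCN proteins, stood at 45.7 and 9.84 CPM, Itgb5, an integrin chain, at 26.9 and 6.57 CPM and Itgb2, a leukocyte integrin chain, at 42.9 and 12.8 CPM. The list holds genes of other cells: the proteoglycan Dcn stood at 78.1 and 31.2 CPM in endothelial cells and at 14370 and 15028 CPM in stellate cells. In stellate cells 0 of 14 were higher and 2 lower, Itgb2 at 26.8 and 9.44 CPM and Hspg2, the proteoglycan perlecan, at 187 and 120 CPM, with a median of -0.05, and the share lower over all genes was 10.9%. In contractile cells 5 of 15 were higher and 3 lower, beside 15.6% and 19.4% of all genes. Itga6 stood there at 25.7 and 1.43 CPM, Hspg2 at 275 and 102 CPM and Itgb3, an integrin chain, at 120 and 267 CPM.

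Ccn5 was a gene of few cells. In fibroblasts, marked by genes such as Dpt and Clec3b, it stood at 615 CPM (552 to 684) and 1114 CPM (1015 to 1220), from 13 of 27 and 11 of 24 cells. The log2 ratio was 0.86 (0.65 to 1.06), but 43.7% and 52.6% of the counts lay in the tenth of cells with the most, 95 of the 462 counts of the knockout-labelled library in a single cell. The summed fibroblast markers of the class also differed, at 5577 and 12806 CPM, as did its summed contractile markers, at 11734 and 7424 CPM, and their part in the Ccn5 ratio was not tested. Cells passing both the fibroblast and the contractile gate were called fibroblasts. The contractile sums of this class were above those of the contractile class itself, given below. Ccn5 is therefore not placed in fibroblasts apart from contractile cells. The shares of positive fibroblasts, 48.1% (28.7 to 68.0) and 45.8% (25.6 to 67.2), had overlapping intervals. In contractile cells Ccn5 was found in 21.8% and 3.28% of the cells, at 67.0 and 4.29 CPM from 177 and 3 counts, giving a log2 ratio of -3.96 (-6.26 to -2.39). The markers of that class were also lower in the knockout-labelled library, with a summed level of 8123 and 3967 CPM, and with 1 more marker required the Ccn5 ratio turned to 2.24. Pooled with stellate cells and fibroblasts, Ccn5 came to 93.6 and 96.9 CPM, in 11.9% and 2.95% of the cells. Of the 467 pooled counts of the knockout-labelled library, 462 came from 11 fibroblasts. The pooled log2 ratio of 0.05 was -2.70 by clusters, -0.71 with mixed cells kept and -0.36 as a mean of per-cell CPM, so no direction is read from it.

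Ccn3, which had 127 and 70 counts over all kept cells, was found in the same few classes. In contractile cells it stood at 21.6 CPM (16.3 to 27.9) and 21.5 CPM (12 to 35.4), from 25 of 206 and 3 of 61 cells. In fibroblasts it stood at 36.3 CPM (22.2 to 56.1) and 60.3 CPM (39.0 to 89.0), from 9 of 27 and 7 of 24 cells, with overlapping intervals. All 9 and all 7 fibroblasts with a Ccn3 count also held Ccn5, whereas Ccn5 was found without Ccn3 in 4 and 4 further fibroblasts. Over the 3 pooled classes, 34 of 34 and 10 of 10 cells with Ccn3, and 60 of 62 and 15 of 15 cells with Ccn5, also held a Ccn2 count. Ccn2 counts were present in 441 of 523 and 466 of 509 of those cells in all. Ccn4 was even in fibroblasts, at 111 and 109 CPM, and was lower in contractile cells at 43.1 and 20.02 CPM (114 and 14 counts).

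Mesothelial cells depended on how they were defined. By the marker gate Ccn1 stood at 320 and 189 CPM, giving a log2 ratio of -0.76 (-1.20 to -0.35), Ccn4 at 50.9 and 9.44 CPM and Ccn2 at 340 and 6.29 CPM, from 47 and 17 cells. Cluster 24 has mesothelial Upk3b and Upk1b among its leading genes beside fibroblast Eln and Gas1. It held 135 and 71 cells, with Ccn1 at 330 and 444 CPM, Ccn4 at 64.1 and 66.6 CPM and Ccn2 at 749 and 650 CPM. The Ccn1 direction turned and the loss of Ccn2 was not seen there. Cluster 24 also held 603 and 661 Ccn5 counts, against 0 and 1 in the gated mesothelial cells, so it took in other cells. The part of fibroblasts in its values was not tested. Cholangiocytes, only 3 and 32 cells, had Ccn1 at 417 and 253 CPM.

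In the control-labelled library Ccn1 was highest in fibroblasts and mesothelial cells at 432 and 320 CPM, then in contractile cells at 185, stellate cells at 131 and endothelial cells at 85.4 CPM, with no overlap of intervals between neighbours. Cholangiocytes, at 417 CPM from 11 counts, could not be placed. In the knockout-labelled library the order was stellate cells, contractile cells and fibroblasts, the last 2 with overlapping intervals, followed by cholangiocytes and mesothelial cells, also overlapping, and endothelial cells. Ccn4 was highest in fibroblasts and endothelial cells in both libraries, with overlapping intervals in each. Outside these classes levels were low. Ccn1 stood at 9.13 and 11.6 CPM in hepatocytes and at 14.3 (12.2 to 16.6) and 12.8 CPM (11.3 to 14.6) in Kupffer cells, beside 5.57 (1.81 to 13.01) and 3.70 CPM (1.01 to 9.47) in B cells, and the Kupffer and B cell intervals overlapped in the control-labelled library but not in the other. In Kupffer cells it was found in 11.4% and 13.5% of cells, but after thinning in 4.49% (3.26 to 6.02) and 4.37% (3.26 to 5.72), beside 1.41% (0.17 to 5.0) and 2.48% (0.51 to 7.07) in B cells, with overlapping intervals. Monocytes, dendritic cells, neutrophils, T cells and NK or ILC1 cells had 7 CPM or less of each member in every library. Ccn6 had 3 and 21 counts over all kept cells.

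Genes with the most similar profile were taken from the correlation of log2(CPM + 1) over 24 class-by-library sums of at least 30 cells. These sums share libraries and depth and so describe cell-type patterns only. Fibroblasts, with 27 and 24 cells, were among the classes left out, so the class where Ccn5 was highest is missing from these profiles. For Ccn1 the most similar genes were Map4k3 (Pearson r of 0.95), Tcaf1, Zfp334, Fkbp9 and Cd151, with Ccn2 at 0.84 and Ccn4 at 0.75. For Ccn4 they were C1qtnf1 (0.94), Pcdhb18, Pabpc4l, Zfp503 and Esam. For Ccn5 they were Slc1a6 (0.91), Actg2, Cnn1, Fbn2 and Lmod1. Ccn3 had too few counts for this measure.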

How the data were processed

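The deposited matrices held whole-number counts per gene and cell from 2 BD Rhapsody libraries, 1 per genotype label, mapped to GRCm39, per the submitters' processing notes. No label or header names the aligner, the counter or any collapsing of molecular identifiers. Each matrix held 10000 barcodes, with 106208933 (control label) and 129802501 (knockout label) counts in total. Cells with at least 300 genes, at least 500 counts and at most 25% mitochondrial counts were kept, and the 5% with the highest Scrublet doublet scores were removed. Classes were gates on the number of distinct markers detected; the marker lists came first, and the thresholds were set after per-cell marker counts had been seen. Clusters (Scanpy 1.11.5, 2000 variable genes without CCN genes, 30 components, 15 neighbours, Leiden resolution 1) served as an alternative.

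Counts were summed per class and library and given as CPM with exact Poisson intervals; ratios had exact conditional intervals and shares exact binomial intervals, all 95% and covering counting error only (SciPy 1.17.1, NumPy 2.4.6). A count of 0 allows up to 3 counts. With 1 library per label no test was run. Shares were also taken after thinning each cell to 4000 counts. On counts simulated with Poisson error only, 95.5% of intervals in endothelial cells covered the true ratio over 8754 genes. In stellate cells 96.0% did so over 8824 genes. The intervals assume that same error, so this checks the calculation and not differences between cells or animals. The text names the CCN genes in every class, up to 3 measured genes per list with the largest ratio past 1.5-fold, and the 5 genes closest in profile to each member with at least 200 counts. One gene that this rule would name is not reported here. The members and the lists were chosen with earlier results of these data known. Alternatives covered the gates, cell and doublet filters, scaling, thinning, per-cell means and the limit on measured genes, and 4 more were added after the data had been seen.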

Additional observations from a re-analysis of the deposited data

Results flagged for a closer look

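Over whole classes, Ccn1 was lower in endothelial cells of the library labelled knockout, at 85.4 and 50.2 CPM, and higher in stellate cells, at 131 and 1444 CPM. In cells with mostly periportal markers the endothelial log2 ratio was also -0.77. Those cells made up 70.6% and 79.9% of the endothelial class, so this is largely the same set of cells. The endothelial direction was not kept in every setting. With clusters weighted as in the control-labelled library the log2 ratio was 0.12. It was 0.31 with mixed cells kept, among them cells that also carried stellate markers. Without these changes the stellate log2 ratio exceeded the endothelial one by 4.23. With 1 library per label the difference was not tested, and genotype and library cannot be told apart.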

How the results depend on the processing

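No paired analysis was possible because each label had 1 library. The endothelial Ccn1 ratio (-0.77) was -0.63 with TMM and with median-of-ratios scaling, -0.88 as a mean of per-cell CPM and -0.95 in cells with few immediate-early counts. It turned to 0.31 with mixed cells kept and to 0.12 with control cluster weights. The endothelial Ccn4 ratio (0.04) was -0.052 with a looser gate, 0.31 by Leiden clusters, 0.19 with TMM, 0.18 with median-of-ratios, -0.12 as a per-cell mean and -0.066 in thinned cells. The endothelial Ccn2 ratio (-7.73) was -7.35 by clusters and -3.72 with mixed cells kept. The stellate Ccn1 ratio (3.46) was 3.17 with a stricter and 4.33 with a looser gate, 2.92 by clusters, 3.67 as a per-cell mean, 2.02 with mixed cells kept, 3.22 in cells with few immediate-early counts and 4.37 without the tenth of cells highest for the gene, which held 62.9% of control and 30.2% of knockout counts, so that this ratio rises by construction. The contractile Ccn1 ratio (2.17) was 1.39, 2.35 and 2.50 under the last 3 of these. Among ratios past 1.5-fold, directions turned for Ccn5 in contractile cells (2.24 with a stricter gate, 0.90 with mixed cells kept), Ccn1 in mesothelial cells (0.43 by clusters, 0.33 with mixed cells kept), Ccn4 in mesothelial cells (0.057 by clusters), Ccn2 in fibroblasts (-0.24 with mixed cells kept), Ccn3 in fibroblasts (-0.024 with a stricter cell filter) and Ccn3 in the pooled mesenchyme (0.17 in thinned cells). Smaller ratios that turned include Ccn2 in stellate (lowest -0.91) and contractile cells (highest 0.44), Ccn4 in stellate cells (lowest -0.88) and Ccn1 in Kupffer cells (highest 0.97). The cause was not tested. TMM and median-of-ratios scaling moved all endothelial ratios by 0.14 and 0.13. Mixed-cell, cluster-weight, immediate-early and top-tenth alternatives were chosen after seeing the data. Depth limits Ccn3 and Ccn5, with 127 and 70 and with 875 and 703 counts in all.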
